A study of Mus musculus with 9 samples.

Results

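Brown adipose tissue of WT mice kept at room temperature was described from 3 of the 9 samples of the series, all 3 samples of the group WT RT. These mice were WT on the C57BL/6J background, adult, singly housed, held at 23 °C with an acclimation of 5 days, and their tissue was collected at the hour used for the cold-exposed mice. The other samples, 3 WT and 3 GCN2 KO mice in the cold, were not used for any value given here. The study used males and females, and the labels do not state the sex behind each library. Its description of the RNA-seq groups is of mice of both sexes, but Xist and 4 genes of the Y chromosome were read in all 3 libraries, so the libraries did not separate into male and female mice. Poly(A)-selected RNA of the whole dissected depot was sequenced, so each value is taken over all cells in the piece, and fewer cells of a type and less RNA per cell cannot be told apart. The libraries are named A, B and C by ascending library code, and none could be tied to an individual mouse. With 1 group of 3 libraries there is no comparison between groups to test. Values are given per library or as mean ± SD (n = 3), and no p-value is attached to any of them.

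Brown fat burns fatty acids and glucose to make heat. Its cells are filled with mitochondria, and UCP1 in the inner mitochondrial membrane lets protons flow back without making ATP, so that the energy of the respiratory chain is released as warmth. The same cells store triglyceride in many small droplets, make fatty acids from glucose, and take up circulating lipid, and they sit in a dense network of capillaries and sympathetic nerves. Mice at ordinary room temperature are below their thermoneutral range, and brown fat is known to be active in them.

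The libraries held 30455677, 30766437 and 30465177 reads on 16679 listed genes. Of the read total, 99.0% was in protein-coding genes in each library, and lincRNAs held 0.324% ± 0.00872. Protein-coding and other classes are those of GENCODE M21, in which 16648 of the 16679 identifiers were found. Reads were spread very unevenly. A mean of 257.3 ± 27.2 genes held 50% of the reads (272 in A, 274 in B and 226 in C), and 13.3 ± 2.08 genes held 25%. The 10 most read genes took 23.0%, 23.3% and 24.6% of the reads, and the 100 most read took 40.5% ± 1.15. At the other end, 4776 ± 167 genes were needed to reach 90%. Library C was the most concentrated on all of these measures and A and B were close to each other.

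The 30 genes with the highest mean normalized count fall into few functions. Of these genes, 7 are encoded by the mitochondrial genome, and most of the others make, move or burn fuel. The most read gene was mt-Co1, a core subunit of cytochrome c oxidase, with 6.39% ± 0.427 of all reads. The next was mt-Cytb of complex III with 3.94%, and the third was Scd1, the desaturase that makes oleate and palmitoleate, with 2.78% ± 0.401. Fasn, which builds palmitate, ranked 7th with 1.65%, and Fabp4, a fatty acid carrier of adipocytes and capillary endothelium, ranked 8th with 1.03%. Gpd1, which supplies glycerol 3-phosphate, ranked 10th with 0.680%. Ucp1 ranked 14th with 0.454% ± 0.0862. Acly, Acaca and Thrsp of fatty acid synthesis, Pck1 of glyceroneogenesis, Lpl of triglyceride uptake and Pnpla2 of lipolysis were all among the 30 genes, so that enzymes for making, importing and breaking down fat were read side by side. The trifunctional protein genes Hadha and Hadhb, whose products work as one complex in fatty acid oxidation, were both on the list, and their annotated starts lie 86 bases apart and point away from each other on chromosome 5 of GRCm38.

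**Figure D1:**
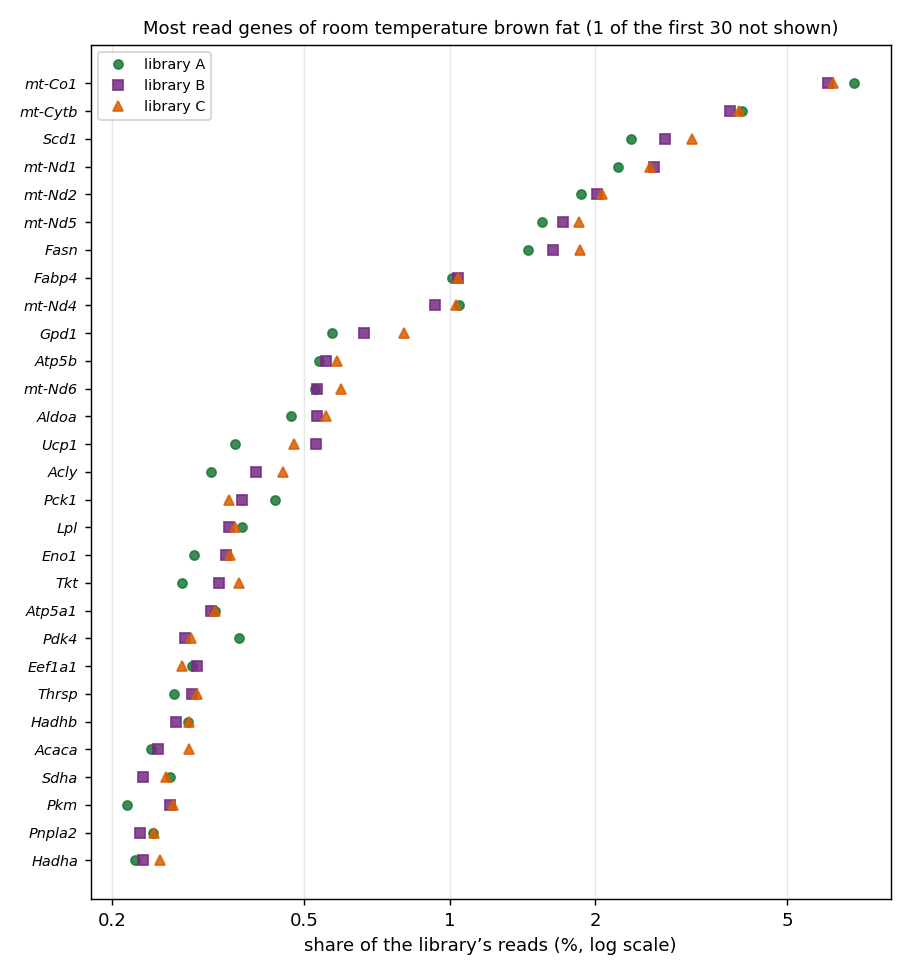
Share of each library's reads (x axis, %, log scale) in the 30 genes with the highest mean normalized count (y axis, most read at the top, 1 gene not shown), with 1 symbol per library. The first gene, mt-Co1, took 6.39% on average and the last, Hadha, 0.235%, and Scd1, Fasn, Acly and Gpd1 were lowest in A and highest in C.

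Counts favour long transcripts, so ranks by count are shares of the reads, and levels of different genes are compared per length. The per-length level is the normalized count divided by the merged exon bases of the gene, scaled so that each library sums to 1000000, and is written as TPM. On this scale mt-Co1 stood at 99968 ± 6117, mt-Cytb at 83202 ± 2262 and mt-Nd1 at 62996 ± 6228. The highest nuclear gene was Scd1 at 13755 ± 2076. The short subunits of the respiratory chain then moved up: Cox8b reached 8328 ± 535 and was 9th per length, against 68th by count. Ucp1 was 10th at 6720 ± 1303, and Gpd1 and Fabp4 followed at 5558 ± 1003 and 5548 ± 131. The merged exon length of Fabp4 is longer than its main transcript, which lowers its per-length level. Cidea, a lipid droplet protein abundant in brown adipocytes, was 17th at 3621 ± 143.

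Genes of the mitochondrial genome took 18.3%, 17.9% and 18.5% of the reads, and 36.0% of the total per length. Along the circle, 1 stretch of neighbouring genes stood far below the rest. mt-Co1, mt-Cytb, mt-Nd1, mt-Nd2, mt-Nd4, mt-Nd5 and mt-Nd6 had means from 158442 to 1832065 normalized counts. The 6 genes that lie next to each other between mt-Co1 and mt-Nd4 had means from 526 to 2100. mt-Co2, a core subunit of the same enzyme as mt-Co1, was listed at 933, 866 and 1020 counts, and mt-Co3, another core subunit, at 887, 820 and 1030. Per length, mt-Co1 was 865-fold above mt-Co2 in the mean of the 3 libraries. The authors counted only reads with a single place in the genome. GENCODE M21 places 7 unprocessed pseudogenes in a row on chromosome 1 of GRCm38, from 24611535 to 24616197, that are copies of this stretch of the mitochondrial genome. The share of 100-base words of a gene that also occur in a nuclear transcript was 99.5% for mt-Co2, 99.5% for mt-Atp6, 99.9% for mt-Co3, 97.6% for mt-Nd3 and 98.5% for mt-Nd4l. It was 60.8% for mt-Nd4 and 30.8% for mt-Co1, whose ends reach into the copied stretch, 3.19% for mt-Nd2 and 0% for mt-Nd1, mt-Nd5, mt-Nd6 and mt-Cytb. mt-Atp8 had no shared word in an annotated transcript. Most of its place falls in the 233 bases between 2 of the annotated copies, and its end overlaps the start of mt-Atp6. The copies themselves had means from 73.8 to 405 counts.

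The first 60 bases of mt-Co2 and mt-Co3 and of their copies Gm28661 and Gm28437 show how closely the annotated copies match the genes. Capitals would mark a mismatch, and there is none. Over the 681 bases in which mt-Co2 and its copy overlap there were 0 mismatches, and over 783 bases of mt-Co3 there were also 0. The sequences are from the GENCODE M21 transcripts, 5′ to 3′.
mt-Co2: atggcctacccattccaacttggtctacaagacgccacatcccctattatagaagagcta
Gm28661: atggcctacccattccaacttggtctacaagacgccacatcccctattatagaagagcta
mt-Co3: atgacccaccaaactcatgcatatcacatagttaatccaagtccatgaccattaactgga
Gm28437: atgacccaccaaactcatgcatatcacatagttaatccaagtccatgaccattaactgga
The copies are those of GRCm38, and the part of counting by single place in the low values was not tested. The search for shared words covered annotated transcripts only and not the rest of the nuclear genome. In that search mt-Atp8 shared 0% of its words and had 526 counts, and mt-Nd4 shared 60.8% and had 287609. Because the part of such counting was not tested, the levels of the 6 genes are given as listed and not as their abundance in the tissue. mt-Nd6 is encoded on the other strand from its neighbours, and the library kit named by the authors is not known to keep strand, so its reads cannot be told apart from antisense reads there. The table lists only genes the authors kept, so a gene that is not listed here or below is not shown to be absent. The mitochondrial ribosomal RNAs were not among the listed genes.

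**Figure D2:**
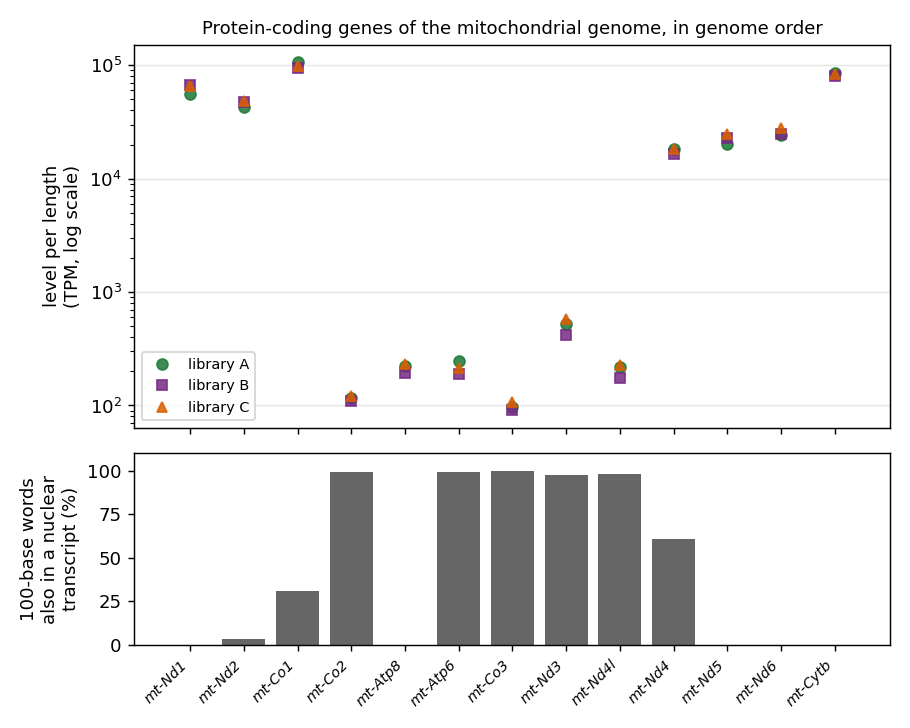
Upper panel: level per length (TPM, log scale) of the 13 protein-coding genes of the mitochondrial genome in their genome order, 1 symbol per library. Lower panel: percent of 100-base words of each gene that also occur in an annotated nuclear transcript. The 6 genes from mt-Co2 to mt-Nd4l sit between 97.9 and 507 on average, all others at 17579 or above, and 5 of the 6 share 97.6% or more of their words.

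Nuclear genes of the respiratory chain were read evenly in the 3 libraries. The 81 nuclear genes for subunits of complexes I to IV and ATP synthase took 5.17%, 4.88% and 4.95% of the reads. Complex I held 1.38% ± 0.0531 in 37 genes, complex II 0.434% in 4 genes, complex III 0.669% in 9 genes, complex IV 1.10% in 16 genes and ATP synthase 1.42% in 15 genes. Atp5b, the catalytic beta subunit of ATP synthase, had 151457, 154352 and 174819 normalized counts. The median coefficient of variation (CV, the SD divided by the mean) over the 81 genes was 4.99%, against 9.10% over the 13034 genes with a mean of at least 50 counts. Only 6 of the 81 genes had a CV over that median. The 81 genes were not matched for level with the 13034, and the CV falls with level. Over all genes the median CV was 9.88% for means of 100 to 1000 counts, 6.67% for 1000 to 10000 and 7.21% above that. The spread was small but shared, since 78 of the 81 genes were higher in C than in B, with a median log2 difference of 0.10, where 7340 of the 13034 genes were.

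Paired subunits of cytochrome c oxidase showed which forms the tissue used. Cox7a1, the form of heart, muscle and brown fat, stood 2.60-fold ± 0.0521 above Cox7a2 per length. Cox8b stood 2.29-fold ± 0.0710 above Cox8a. In subunit 6a, Cox6a1 stood 62.5-fold above the muscle form Cox6a2, whose levels of 106, 85.6 and 74.0 TPM were highest in A. Cox4i1 made up 99.7% of subunit 4, and Cox6b1 99.7% of subunit 6b. Among ADP/ATP carriers, Slc25a5 was 1.79-fold ± 0.192 above Slc25a4.

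Ucp1 was the second gene of the thermogenic programme per length, after Cox8b. It had 101357, 147020 and 142782 normalized counts, so A was below B and C, which were close together. Ucp1 lies on chromosome 8 of GRCm38, plus strand, and made up 97.6% ± 0.332 of the UCP family per length, while Ucp3 had 1.86% and Ucp2, the form found in many tissues, 0.547%. Cidea was steadier, with 49546, 45937 and 48147 counts. Elovl3, an elongase that is strongly tied to brown fat activity, had 6175, 11915 and 12738 counts, lowest in A like Ucp1 but highest in C. Dio2, which makes active thyroid hormone inside the cell, had 1981, 2097 and 3246 counts, close in A and B and highest in C. Ppargc1a, a coactivator of mitochondrial biogenesis, had 1001, 1215 and 1723, rising from A through B to C. Prdm16, a regulator of brown fat fate, had 358, 522 and 695 counts. Fgf21, a secreted hormone, was low at 29.6, 19.9 and 16.7 counts. All 20 genes of the list were in the table, and 17 of the 19 with a mean of at least 50 were higher in C than in A, where 6984 of all 13034 genes were, with a median log2 difference of 0.38. Between B and A the list was even, with 10 of 19 higher in B and a median of 0.0065. All 11 of the brown adipocyte markers were listed and held 1.02%, 1.17% and 1.14% of the reads, so the defining genes of the labelled tissue were present in every library. Of the white adipocyte markers 8 of 10 were listed, at 0.0242% in all, with Lep at 279, 552 and 861 counts and Retn at 4257, 3547 and 3715.

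The start of Ucp1 and of the fatty acid synthesis genes Fasn and Thrsp are shown because these are among the most read nuclear genes. The windows are RefSeq promoters on GRCm38.p6, 250 bases before to 50 after the annotated start, read 5′ to 3′ on the strand of the gene. Capitals mark the letters TATAAA or the letters TATATA or the letters CCAAT on either strand (ATTGG is CCAAT on the other strand). Ucp1 is at chr8:83290098-83290397 on the plus strand, Fasn at chr11:120824498-120824797 on the minus strand and Thrsp at chr7:97417501-97417800 on the minus strand.
Ucp1: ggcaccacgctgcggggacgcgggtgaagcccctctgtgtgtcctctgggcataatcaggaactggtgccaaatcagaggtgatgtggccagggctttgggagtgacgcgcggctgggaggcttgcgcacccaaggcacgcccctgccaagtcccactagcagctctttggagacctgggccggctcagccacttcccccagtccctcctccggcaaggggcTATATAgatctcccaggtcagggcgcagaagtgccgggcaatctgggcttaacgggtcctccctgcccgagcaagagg
Fasn: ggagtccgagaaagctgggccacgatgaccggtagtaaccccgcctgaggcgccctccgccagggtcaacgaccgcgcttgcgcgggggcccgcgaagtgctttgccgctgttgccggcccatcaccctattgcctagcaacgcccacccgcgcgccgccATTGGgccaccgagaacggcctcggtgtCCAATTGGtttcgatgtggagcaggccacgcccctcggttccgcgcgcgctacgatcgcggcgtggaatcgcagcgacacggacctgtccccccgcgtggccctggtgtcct
Thrsp: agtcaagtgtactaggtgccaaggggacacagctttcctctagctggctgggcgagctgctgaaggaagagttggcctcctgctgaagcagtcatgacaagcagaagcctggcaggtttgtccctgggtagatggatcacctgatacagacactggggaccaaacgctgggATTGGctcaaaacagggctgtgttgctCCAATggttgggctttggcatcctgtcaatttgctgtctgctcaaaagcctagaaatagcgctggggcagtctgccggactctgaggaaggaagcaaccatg
Of the 30 most read nuclear genes, 23 had a window in the table, with 30 windows in all. TATATA stood in 4 of these, or 13.3%, against 2.69% of the 15244 windows of listed genes, CCAAT in 46.7% against 37.1%, and TATAAA in 1, or 3.33%, against 8.40%. Over the 110 windows of the 100 most read nuclear genes the shares were 7.27% for TATATA, 50.9% for CCAAT and 9.09% for TATAAA, so TATAAA was below the share of all listed genes in the smaller set and above it in the larger. A match is a description of the letters and not a bound site.

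Fatty acid synthesis held the largest share of the nuclear lists by function, and its genes differed between the libraries in 1 direction. That rank is of read share: per length the list stood at 26038 ± 3432 TPM, below the 82977 ± 3188 of the nuclear respiratory chain and the 29499 ± 2221 of cytosolic ribosomal proteins. Its 14 genes took 5.20% of the reads in A, 5.96% in B and 6.73% in C. Scd1 had 670828, 776323 and 952978 normalized counts, Fasn 410519, 456637 and 556886, and Acly, which makes cytosolic acetyl-CoA from citrate, 90273, 110925 and 135352. All 14 genes were higher in C than in A and 13 of 14 were higher in B than in A, with a median log2 difference of 0.45 between C and A, against 0.02 over the 13034 genes. Scd1 made up 99.4% of the desaturase family per length. Acaca, the cytosolic acetyl-CoA carboxylase, was 1.23-fold ± 0.0488 above Acacb, the form at the mitochondrial surface that restrains fatty acid entry, or 2.02-fold with the longest transcript as the length. In glycerol and triglyceride synthesis, Gpd1 followed the same order with 161155, 184864 and 241432 counts, while Pck1 had 122592, 103445 and 104610 and was highest in A. Pck1 was 544-fold above its mitochondrial relative Pck2 per length. Dgat2 was 5.12-fold above Dgat1.

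Lipid uptake, storage and oxidation were more even in their summed shares. Single genes still shared a direction. In uptake 14 of 15 genes were higher in C than in B, in droplets and lipolysis 15 of 15, and in oxidation 18 of 19. Of all 13034 genes with a mean of at least 50 counts, 7340 were. The 15 uptake and binding genes took 2.07%, 2.07% and 2.11% of the reads. Lpl, the capillary lipase, had 105007, 97085 and 107780 counts, and Cd36, the fatty acid translocase, 60222, 56462 and 65510. Fabp4 was 3.66-fold ± 0.105 above Fabp3, the heart form, per length, with merged exon bases of 4489 and 823. The merged length of Fabp4 is longer than its main transcript, which lowers this ratio. In the droplet, Plin2 was the most abundant perilipin at 829, 1226 and 1163 TPM and was 1.64-fold ± 0.278 above Plin1, with A lower than B and C. Cidea was 3.38-fold ± 0.342 above Cidec. Pnpla2, the first lipase of triglyceride breakdown, had 68569, 63668 and 73115 counts. In fatty acid oxidation, which held 2.00% ± 0.0726 of the reads in 19 genes, Cpt1b, the muscle form of the gatekeeper, was 3.06-fold ± 0.559 above the liver form Cpt1a, or 2.02-fold with the longest transcript as the length. Acsl1 was the leading long-chain acyl-CoA synthetase, 1.71-fold ± 0.203 above Acsl5, or 2.75-fold with the longest transcript.

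Glucose use was present at a similar scale, with 2.40% ± 0.133 of the reads in 20 genes. Aldoa had 132437, 148248 and 166443 counts and Eno1 83225, 95985 and 105198, both lowest in A. The insulin-responsive transporter Slc2a4 was 18.3-fold ± 3.41 above Slc2a1 per length. Hk2 had 83.5, 121 and 157 TPM and was 6.61-fold ± 2.06 above Hk1, or 3.59-fold with the longest transcript. Pdk4, which shuts off pyruvate entry to the citric acid cycle, made up 88.5% of its family and had 103225, 78949 and 87207 counts, with its highest value in A. Of the 20 genes of the list, which holds Pdk4, 17 were higher in C than in A and 14 were higher in B than in A. Of all 13034 genes with a mean of at least 50 counts, 6984 and 6542 were. The citric acid cycle held 2.14% ± 0.0701 of the reads.

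**Figure D3:**
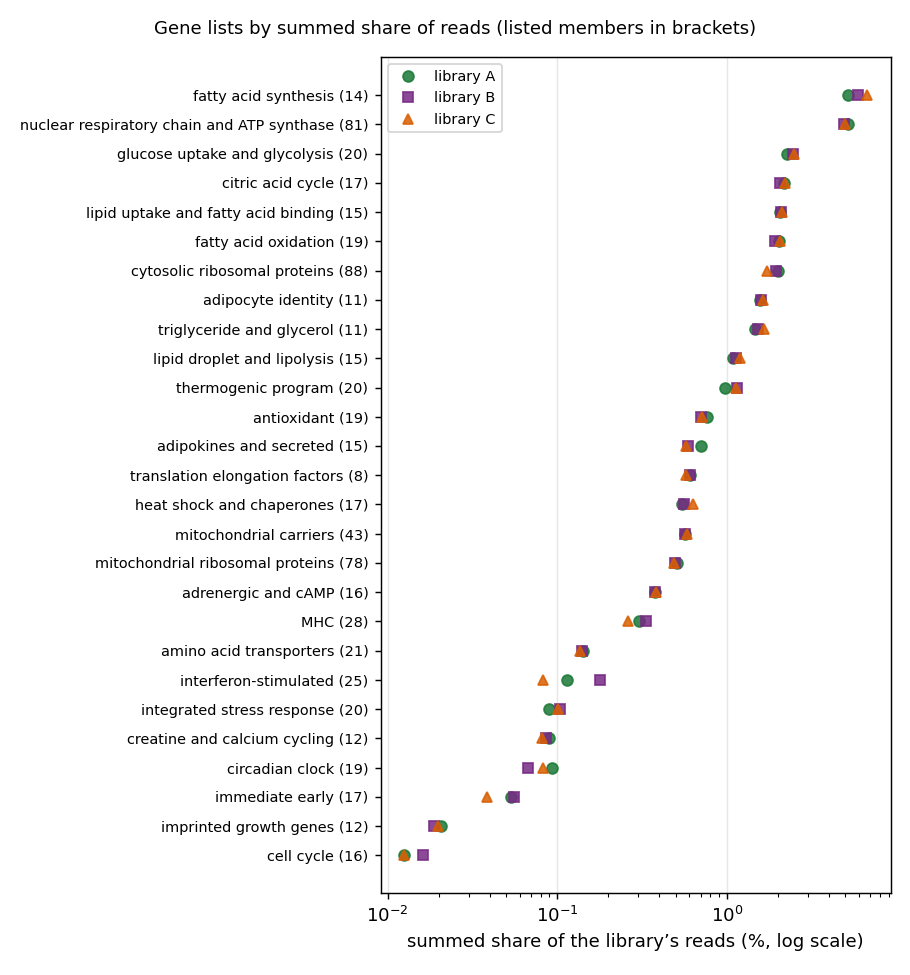
Summed share of each library's reads (x axis, %, log scale) in lists of genes by function (y axis, with the number of listed genes in brackets), 1 symbol per library. Fatty acid synthesis spans 5.20% to 6.73% and the interferon-stimulated genes 0.0823% to 0.177%, whereas symbols of the respiratory chain and the lipid uptake list nearly coincide.

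Receptors and regulators covered a wide range per length. The adipocyte regulators Cebpa and Cebpb stood at 642 ± 53.6 and 391 ± 32.3 TPM. Adrb3, the noradrenaline receptor of brown adipocytes, had 7456, 7244 and 10225 counts, stood at 207 ± 34.0 TPM and made up 88.4% of the beta-adrenergic receptors per length, with 7.61% for Adrb1. Pparg, the master regulator of adipocytes, was at 197 ± 14.2 TPM, 2.54-fold ± 0.223 above Ppara. Esrra was at 87.3 ± 6.84. Ppargc1b, at 24.7 ± 3.48, was above Ppargc1a in every library (25.2 against 12.9 in A, 21.1 against 16.0 in B and 28.0 against 21.2 in C). Among the kinases that phosphorylate eIF2, Eif2ak1 (HRI) was at 22.3 ± 1.95 TPM and Eif2ak2 (PKR) at 19.7 ± 4.06, and their order was turned round in B. Eif2ak3 (PERK) was at 5.71 ± 0.284. Eif2ak4, which encodes GCN2, the kinase the study is about, was the lowest at 3.97 ± 0.364 and had 312, 353 and 391 counts. Of further genes of this pathway, Atf4, which the paper names as its core effector, had 2864, 4442 and 3301 counts. Atf5, a target of ATF4, had 6742, 8155 and 10746. Of the amino acid transporters, Slc1a5 and Slc36a2 led with means of 231 and 266 TPM. Slc38a2 had 1983, 2140 and 2007 counts. Slc7a5 had 69.5, 125 and 127 counts and Slc1a1 89.9, 105 and 137, at 2.43 and 1.13 TPM on average.

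Transcripts of translation elongation factors varied little, and those of ribosomal proteins shared a shift. Eef1a1 had 82462, 83559 and 83692 normalized counts, and the 8 elongation factor genes had a median CV of 2.70%. The 88 cytosolic ribosomal protein genes held 2.00%, 1.95% and 1.72% of the reads, lowest in C. Of the 84 with a mean of at least 50 counts, 6 were higher in C than in A, where 6984 of all 13034 genes were. Their median log2 difference was -0.15. Closely related copies of ribosomal protein genes can share reads, so single members are uncertain. The 10 genes with the smallest spread among those with a mean of at least 1000 counts included Hspb6 (2034, 2035 and 2036 counts), Rpl36al, Bud31 and Kpnb1. Their spread was below the counting error of such levels, and they were picked as the extremes of many genes.

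Cells other than adipocytes contributed measurable RNA. The 13 endothelial markers held 1.34% ± 0.0222 of the reads, most of it from Fabp4 and Cd36, which adipocytes also express. Kdr, a receptor for VEGF on endothelium, had 5012, 5188 and 5931 counts and Pecam1 3713, 3504 and 4303. Fibroblast and precursor markers held 0.157%, 0.144% and 0.132%, with Col3a1 at 13813, 12501 and 13492 counts. Macrophage and monocyte markers held 0.0714%, 0.0856% and 0.0516%, with Lyz2 at 6253, 7247 and 4870. T and NK cell markers held 0.00120% and B cell markers 0.00378%. Of nerve and Schwann cell markers 11 of 12 were listed, at 0.0215%. The tyrosine hydroxylase gene Th was not listed. The sex-linked transcript Xist was listed at 743, 730 and 374 counts, and Ddx3y of the Y chromosome at 2635, 2519 and 2604 counts. Xist is made in female cells and Ddx3y in male cells, so transcripts of both sexes were read in every library, with Ddx3y at nearly the same level in each. What lies behind this was not tested, and the SD is a spread between libraries that may not be one between single mice.

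Genes of skeletal muscle were read in every library. All 28 of its markers were listed and held 0.426%, 0.386% and 0.358% of the reads. Acta1 of the thin filament had 20874, 20095 and 19888 counts. Among myosin heavy chains of muscle, the fast form Myh4 led per length with 163 ± 15.6 TPM, ahead of Myh1 at 39.9 ± 7.59, Myh2 at 18.9 ± 8.35 and the slow form Myh7 at 15.3 ± 2.51. Myh4 had 12581, 11472 and 10882 counts, Myh2 2374, 1026 and 1389, and Myh7 1257, 1644 and 1799. Myh2 was highest in A and Myh7 was lowest in A. The nonmuscle form Myh9 had 4461, 4674 and 5208 counts. Per length, Atp2a1, the calcium pump of fast muscle, was 1.69-fold ± 0.254 above Atp2a2, and Ckm made up 64.6% of creatine kinases. Whether any of this RNA was made by brown adipocytes was not tested.

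Transcripts that are usually made by hepatocytes held a share of reads similar to that of the muscle markers. All 10 liver markers were listed, with 0.477%, 0.368% and 0.392% of the reads. Alb, the serum albumin gene, had 67281, 49891 and 58360 normalized counts and a per-length level of 2106 ± 306 TPM. Fga and Fgb of fibrinogen had means of 310 and 207 TPM, and the apolipoprotein genes Apoa1 and Apoa2 of 576 and 1327 TPM. A further list of 25 liver genes, chosen after these values were seen, was listed in full with 0.387%, 0.301% and 0.313%, among them the cytochrome P450 gene Cyp2e1 at 18268, 11018 and 13352 counts and the urea cycle gene Cps1 at 3166, 2622 and 2994. All 10 of the markers were highest in A. Their spread was moderate, with a median CV of 13.2%.

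Genes of intestinal epithelium and of visceral smooth muscle were also read, and these differed widely between the libraries. Both lists were chosen after seeing values. Of 20 intestinal genes 19 were listed, with 0.0872%, 0.105% and 0.0376% of the reads. Muc2, the mucin of goblet cells, had 1120, 1608 and 423 counts, Krt19 2085, 2710 and 923, and Car1, a carbonic anhydrase of colon, 3066, 2139 and 751. Of 12 genes of visceral smooth muscle 11 were listed, with 0.0907%, 0.0538% and 0.0285%. Without the members that another list also holds, among them Myh11 and Cnn1, the share was 0.0309% on average in place of 0.0577%, from 0.0189% to 0.0450%. Actg2, the actin of gut smooth muscle, had 5931, 3556 and 1013 counts. By summed share C was thus lowest for both lists, B highest for the epithelial list and A for the muscle list, and 15 of the 18 intestinal genes with a mean of at least 50 were higher in B than in A, where 6542 of all 13034 genes were. The general list of smooth muscle and pericyte markers split: Myh11 (9246, 4859 and 2130), Cnn1 (3623, 2122 and 754) and Acta2 (6987, 4517 and 2737) were highest in A and lowest in C, while the pericyte genes Rgs5 (7941, 8009 and 9773) and Pdgfrb (748, 842 and 874) were highest in C.

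Genes of further organs, also listed after seeing values, were scarce or not listed. None of 10 kidney genes and none of 10 testis genes was in the table, 1 of 10 genes of exocrine pancreas was (Ctrl, at 12.0, 17.2 and 2.95 counts), and 2 of 10 of lung were, with no surfactant gene among them. Of heart genes 5 of 10 were listed, at 0.00221% in all, and of brain genes 7 of 10, at 0.00115%. Whether these reads came from other tissue in the dissected pieces or from other libraries was not tested, nor was the part of liver, gut and muscle RNA in the levels of the genes named above.

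**Figure D4:**
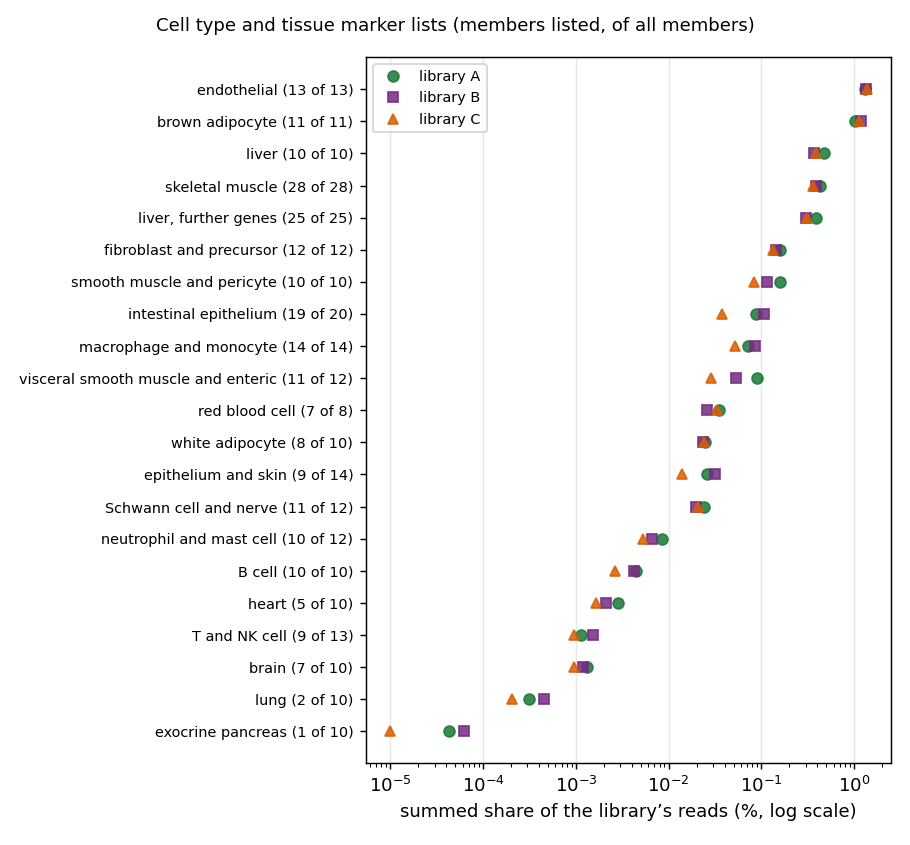
Summed share of each library's reads (x axis, %, log scale) in lists of marker genes for cell types and tissues (y axis, with the number of members listed of all members), 1 symbol per library. The liver list, at 0.368% to 0.477%, lies beside skeletal muscle at 0.358% to 0.426%, and intestinal epithelium and visceral smooth muscle have their lowest symbol in C.

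Between the libraries, the median CV over all 16679 genes was 11.4%. It was 26.0% for means of 10 to 100 counts, 9.88% for 100 to 1000, 6.67% for 1000 to 10000 and 7.21% above that, where counting alone would give 17.2%, 4.96%, 2.22% and 0.709%. For genes above 1000 counts the spread was therefore several times the counting error. The common biological coefficient of variation, which edgeR estimates beyond counting, was 0.155. Of all genes, 2786 had a CV over 30%, most of them below 100 counts. Each pair of libraries differed by more than sampling noise, with a mean chi-square per gene of 18.3 to 25.7 and a median of 2.71 to 2.89, where counting alone gives a mean of 1, so no library held the same reads as another. The comparison does not tell separate mice from separate libraries of the same RNA. Across genes, which are not independent replicates, the Pearson correlation of log2(normalized count + 1) was 0.983 to 0.984. Between B and C 410 of the 13034 genes with a mean of at least 50 differed by over 2-fold, against 267 between A and C and 207 between A and B.

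**Figure D5:**
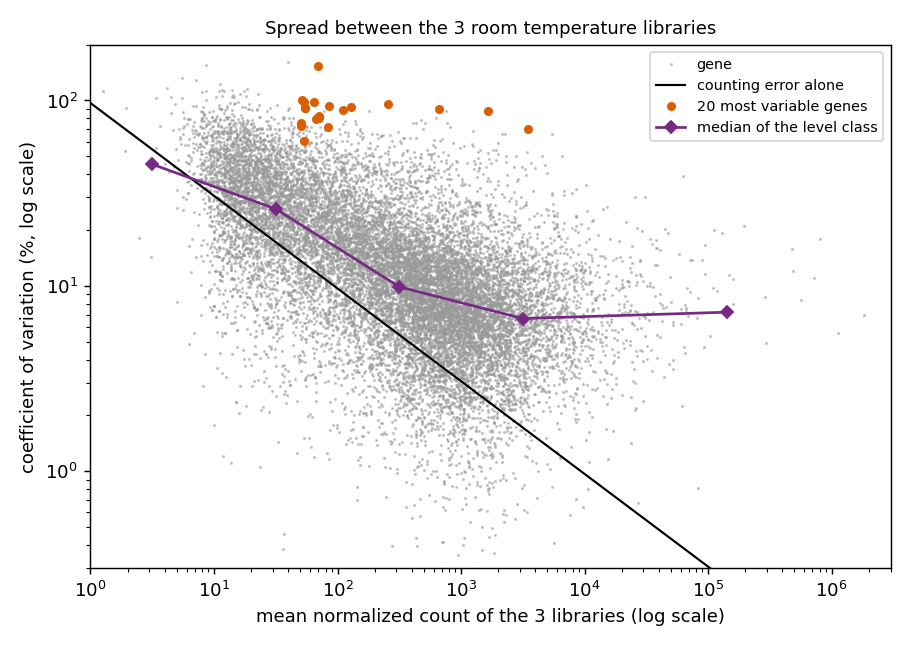
Coefficient of variation between the 3 libraries (y axis, %, log scale) against the mean normalized count (x axis, log scale), 1 grey point per gene. The black line is the spread that counting alone gives, diamonds are medians of the level classes (26.0% at 10 to 100 counts and 6.67% at 1000 to 10000), and orange points are the 20 most variable genes with a mean of at least 50.

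The genes that varied most did so in different libraries. Of the 13034 genes, 683 had an SD of log2(normalized count + 1) of 0.5 or more. Among these 683, B was the highest library for 415, A for 210 and C for 58, and C was the lowest for 477. The single most variable gene was Ighg2b, an antibody heavy chain, with 191, 6.34 and 9.84 counts, which is high in A alone. Actg2, Chrm2 (129, 68.9 and 14.8), Grem1 (220, 82.5 and 29.5) and Hand2 (127, 51.7 and 23.6), genes of visceral smooth muscle and its surrounding tissue, were highest in A and lowest in C. Fxyd4, Optc and Fam3b were also highest in A. The rest of the 20 most variable genes were highest in B. Chil3, a chitinase-like protein of myeloid cells, had 110, 539 and 121 counts, Slfn4 899, 3354 and 744, and Cish, a feedback inhibitor of cytokine signalling, 238, 1337 and 402. Klra2, Treml2, Cd300lf, Sirpb1c and Klrk1, surface receptors of leukocytes, were also highest in B. Of the 20 genes, 4 had a mean of at least 200 counts.

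Interferon-stimulated genes were highest in B and lowest in C. The 25 genes, which respond to interferon, held 0.114%, 0.177% and 0.0823% of the reads. All 25 were higher in B than in A and all 25 were lower in C than in A, with median log2 differences of 0.86 and -0.42, and all 25 had a CV over the median of the 13034 genes. Ifit3 had 2968, 5462 and 1923 counts, Irf7 2365, 4392 and 1675, and Isg15 1073, 1953 and 806. Ly6c2, which is on both this list and that of monocytes, had 391, 1513 and 355, and Fcgr1 and Ccr2 of monocytes had 776, 2229 and 738 and 729, 1613 and 613. The macrophage genes C1qa and Mrc1 were ordered otherwise. C1qa had 2271, 1751 and 1561 counts and Mrc1 1479, 1257 and 1026, both highest in A.

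Clock genes were lowest in B as a list. The 19 listed clock genes held 0.0925%, 0.0672% and 0.0825% of the reads. Dbp, an output gene of the clock, had 2227, 1030 and 1620 counts, Per3 931, 404 and 734, and Tef 3915, 2248 and 3300, all lowest in B. Arntl (126, 179 and 152), Clock (1436, 1644 and 1712) and Bhlhe40 (3142, 3373 and 3580) were instead lowest in A. Of the 18 clock genes with a mean of at least 50, 15 were lower in B than in A and 3 were higher, where 6542 of all 13034 genes were higher. The 17 listed immediate early genes held 0.0531%, 0.0555% and 0.0386%, lowest in C, but single members differed. Egr1 had 349, 1209 and 323 counts and Fos 271, 727 and 411, both highest in B, whereas Nr4a1 had 3996, 1160 and 1701 and Nr4a2 689, 302 and 370, both highest in A. The paper describes the tissues it analysed as collected at 1 time of day. The part of these differences in the levels of the other lists was not tested.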

How the data were processed

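RNA of 3 WT RT samples was analysed. Per the labels and the authors' methods, mRNA was enriched with oligo(dT), libraries were made with the NEBNext Ultra II RNA kit, and reads were trimmed with Trimmomatic 0.36, aligned with STAR 2.5.2b and counted over exons, unique reads only, with featureCounts of Subread 1.5.2. The submitters' processing notes name GRCm39. The authors deposited, as a signal per gene and library, the read count divided by a DESeq2 size factor set within each comparison table. Their fold changes and p-values were not used. The values came from the table of WT Cold against WT RT. The authors' filter on low genes is not given in the sources used here. Every listed gene had at least 2 reads over the 3 WT RT libraries, and a gene that is not listed was not analysed here. Columns carry library codes only, and the 3 WT RT codes were recognised as those common to both tables against WT RT. The number of columns of other samples used was 0.

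Every value was a whole multiple of 1 step per library (100% of values within 0.01 of a whole number), so reads were recovered, with totals from 30455677 to 30766437. Genes without a symbol (16) kept their identifier and held 0.00531% of the reads. Per-length levels used merged exon bases of GENCODE M21 (GRCm38) without 66 features under 150 bases (shorter than a read), and 16648 of 16679 identifiers were found there. Spread beyond counting was estimated with edgeR 4.0.16 (estimateDisp, TMM, intercept only, mean of at least 10 counts) in R 4.3.3, with DESeq2 1.42.0 as an alternative, after both were tested on simulated data. The labels number the samples as biological replicates, and the SD is over these 3 libraries, whose sex-linked transcripts do not separate male from female mice. Alternatives covered the scaling, the table, filters, the denominator, gene length, pseudocounts and each library left out.

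Genes were named by rule: the 30 highest by count, the 20 highest per length, the leading members of each list and those read for their role, all members of gene families, the 20 most and 10 least variable genes, and genes the study names. The gene lists and members were chosen with earlier results of these data known, and the further organ lists after values were seen. Some genes that the rule names are not reported here. There is 1 group, so no test between groups was made, and pairs of libraries were compared with a chi-square of their reads per gene, given without a p-value.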

Additional observations from a re-analysis of the deposited data

How the results depend on the processing

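Taking the same libraries from the other table moved no share, family ratio or median CV by more than the SD between libraries. For a value with no such SD, the SD of the values with each library left out was used. Recovered reads scaled to a common total also moved no share and not the median CV, and the ratios were not run on these. Both alternatives rescale whole libraries, which cannot change a share or a ratio within a library. Only the median CV could move with the scaling. Leaving out the mitochondrial genome changed the denominator by construction: 551 genes then held 50% of the reads, the 10 most read held 10.9%, nuclear respiratory chain genes 6.11%, Ucp1 0.556% and skeletal muscle markers 0.477%. Per length, the same values were 55.7 genes, 38.7%, 8.30%, 0.672% and 0.459%, and genes of the mitochondrial genome held 36.0%. Without mt-Nd4, mt-Co2, mt-Atp6, mt-Co3, mt-Nd3 and mt-Nd4l, an alternative chosen after seeing the data, the mitochondrial share was 17.4%. Leaving out genes of the liver, intestine, gut wall and muscle lists, also chosen then, gave a median CV of 11.4%. These lists hold few of the 16679 genes, so the median could hardly move. The part of RNA from other tissue in the spread was not tested. The median CV was 11.2% for means of at least 10 counts, and 9.06% to 9.39% with 1 library left out, where fewer libraries lower it by construction. The common biological coefficient of variation was 0.147 to 0.166 with 1 library left out. The median over genes was 0.143 by DESeq2 and 0.143 by edgeR, a different statistic from the common value of 0.155. With a pseudocount of 5 in place of 1, 16 of the 20 most variable genes stayed on the list, and with a minimum mean of 200 counts the 4 that could stay did. The library with the highest share stayed the same for 50 of 54 lists per length. The median ratio between the first and second member over 31 gene families was 4.24 and lay between 3.98 and 4.49 under the alternatives run. Single ratios depended more on length: with the longest transcript in place of merged exons, 20 of the 31 moved by more than the SD between libraries, and all stayed above 1. No paired analysis was possible because there is 1 group, no test between groups was made and the columns carry no replicate numbers. Depth limits genes of 10 to 100 counts, where counting alone gives a CV of 17.2%.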

Other observations

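Further groups of genes were read in the same libraries, and their values are given without a comparison. Secreted proteins of adipocytes held 0.706%, 0.591% and 0.574% of the reads in 15 genes. Cfd, the complement protease adipsin, had 41341, 27922 and 23367 normalized counts, and Adipoq, which encodes adiponectin, 29373, 23698 and 25038, so both were highest in A. The 19 antioxidant genes held 0.726% ± 0.0316. Among them Sod1 was even at 16398, 15768 and 16864 counts, while Gpx3, the secreted glutathione peroxidase, had 33662, 18551 and 23992. The 17 heat shock and chaperone genes held 0.542%, 0.559% and 0.628%, with Hsp90aa1 at 7836, 10510 and 13151 counts.

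The 28 genes of the major histocompatibility complex held 0.304%, 0.334% and 0.260%, highest in B and lowest in C, as was B2m, the light chain of class I molecules, at 22345, 25042 and 20251 counts. Closely related class I genes can share reads, so single members are uncertain. The mast cell proteases Mcpt4 and Cma1 had 542, 331 and 263 and 535, 324 and 240 counts, both highest in A. Genes of red blood cells held 0.0312% ± 0.00454, with the beta globin gene Hbb-bs at 4825, 3717 and 5068 counts. The 78 mitochondrial ribosomal protein genes held 0.498% ± 0.0109 with a median CV of 5.43%. The 12 genes of creatine and calcium cycling held 0.0852% ± 0.00403, or 0.0481% without the members that another list also holds, such as Atp2a1 and Ryr1 of the muscle markers, and Ckmt1, a mitochondrial creatine kinase, had 1332, 2111 and 811 counts. Cell cycle genes held 0.0138% ± 0.00212, imprinted growth genes 0.0197% ± 0.000983 and epithelial and skin markers 0.0238% ± 0.00904.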
